A study of Mus musculus with 6 samples.

Results

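The genes described here are 10 transcription factors that direct the formation of blood lineages: Gata1, Gata2, Klf1, Tal1, Gfi1b, Spi1, Cebpa, Cebpe, Gfi1 and Runx1. They were chosen by gene symbol, and all 10 were among the 54532 genes of the deposited table. The labels describe RNA sequencing of femurs from mice whose ovaries had been removed (OVX, which leads to bone loss), with 3 samples given saline and 3 given zingerone (Zin), a ginger phenol, at 100 mg/kg by mouth each day for 8 weeks. Genotype is given as WT in both groups, and the week in the sample titles is 8, 9 or 10, without saying what it counts. Only the 3 OVX samples with saline could be tied to columns of the table by name. They are called libraries 1, 2 and 3 here, and the Zin samples were not analysed here. The labels also name RAW264.7, a mouse macrophage-like line, and osteoclast precursors, while the extraction text describes femur ground to powder. The design text speaks of biological replicates but no label names separate animals, so the spread between libraries may in part be technical.

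Blood cell types arise from stem cells in the marrow through factors that switch on one program and hold back others. Gata1, Tal1 and Klf1 act together on red cell genes, Gata1 and Gfi1b also serve the platelet-forming megakaryocytes, and Gata2 acts earlier, in stem cells, progenitors and mast cells. PU.1, the product of Spi1, and the C/EBP factors drive macrophages and granulocytes, PU.1 and Gata1 hold each other in check, and Gfi1 and Gfi1b are related repressors. A whole femur holds marrow with all of these cells beside bone.

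The libraries held between 16581579 and 17017907 reads. FPKM is the number of reads per kilobase of gene, scaled to the size of the library. The 14011 genes that averaged 1 FPKM or more were tested, and the 10 factors were among them. Reads of each gene were compared between the 3 libraries with a chi-square test, which asks whether a spread exceeds counting error and compares libraries, not conditions. It called 38.7% of the 14011 genes (Benjamini-Hochberg adjusted p below 0.05), 44.6% of the 6041 genes whose mean reads lay in the range of the 10 factors, and 35.3% of the 777 tested genes with a transcription factor family. Marrow, bone, cartilage and muscle markers were all present, but cartilage markers were scarce outside library 2. Summed chondrocyte markers came to 24.8, 561 and 54.0 FPKM in libraries 1, 2 and 3, and Matn3 among them had 1, 695 and 1 reads. Library 2 stood apart: all 10 osteoblast and all 8 chondrocyte markers were highest there, and all 8 skeletal muscle markers were lowest there. In a bulk sample, fewer cells of a type and less RNA per cell cannot be told apart.

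All 10 factors were expressed in every library, from 5.41 FPKM for Gata2 to 140 FPKM for Klf1, with at least 492 reads behind each value. Klf1 had the highest mean, followed by Cebpe, Spi1, Tal1, Gata1, Cebpa, Gfi1b, Gfi1, Runx1 and Gata2. For 8 of the 9 neighbouring pairs in this order the higher gene was above the lower one in all 3 libraries and the ranges did not overlap. The exception was Cebpa and Gfi1b: their ratio was 1.01, 1.31 and 0.965 in libraries 1, 2 and 3, so their order was not resolved. Gata1 and Cebpa were also nearly level in library 2, with a ratio of 1.01 against 1.34 and 1.53 in libraries 1 and 3. Among the 1469 genes that the table assigns to a transcription factor family, Klf1 ranked 3, Cebpe 9, Spi1 16, Tal1 23, Gata1 32, Cebpa 40 and Gfi1b 44 by mean FPKM. Gfi1, Runx1 and Gata2 ranked 166, 284 and 369. The table gives no family to some such genes, Cebpd among them.

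**Figure D1:**
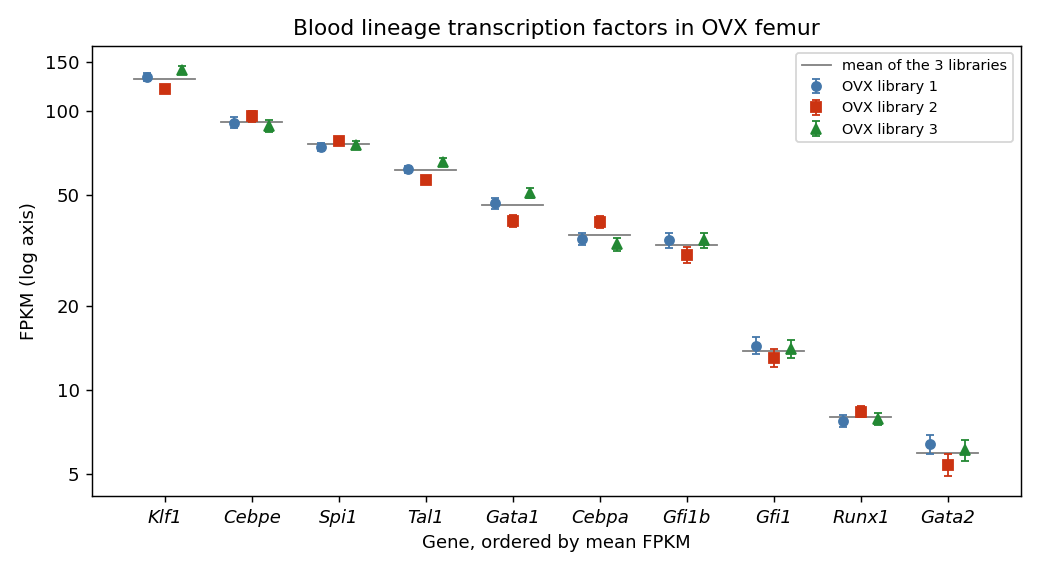
FPKM of the 10 factors (log axis) in OVX libraries 1, 2 and 3, ordered by mean. Points are library values, bars the exact Poisson 95% intervals of the reads (counting error only) and grey lines the means. Klf1 lies between 120 and 140 FPKM and Gata2 between 5.41 and 6.40, and the red squares of library 2 are the lowest point for 6 genes and the highest for 4.

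The red cell factors shared one pattern, with their lowest level in library 2. Gata1, the zinc finger factor required for red cell and platelet formation (ENSMUSG00000031162, mm10 chromosome X, 7959260 to 7978071, minus strand), stood at 46.7, 40.3 and 50.9 FPKM in libraries 1, 2 and 3. These values came from 1969, 1655 and 2053 reads, and the 95% interval of library 2 (38.4 to 42.3 FPKM) lay below those of library 1 (44.7 to 48.8) and library 3 (48.8 to 53.2). The mean was 46.0 ± 5.36 FPKM (SD, n = 3). The highest value was 1.26 times the lowest, the widest spread among the 10 factors (adjusted p = 2.37e-11 in the chi-square test).

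Klf1, which binds the CACCC box of the adult beta-globin promoter (ENSMUSG00000054191, chromosome 8, 84901928 to 84905291, plus strand), measured 132, 120 and 140 FPKM, based on 3488, 3091 and 3533 reads. Its mean was 130.5 ± 9.95 FPKM (SD, n = 3). Library 2 was again the lowest, and the highest value was 1.16 times the lowest (chi-square test, adjusted p = 5.01e-09). Tal1, the helix-loop-helix factor that joins Gata1 in one DNA-bound complex (ENSMUSG00000028717, chromosome 4, 115056426 to 115071755, plus strand), measured 61.8, 56.5 and 65.8 FPKM, based on 4673, 4166 and 4764 reads. Its mean was 61.3 ± 4.68 FPKM (SD, n = 3), with a spread of 1.17-fold (chi-square test, adjusted p = 5.32e-12). Gata1, Klf1 and Tal1 had the same order of libraries, with library 3 highest and library 2 lowest.

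Gfi1b, a repressor of red cell and megakaryocyte precursors (ENSMUSG00000026815, chromosome 2, 28609450 to 28621982, minus strand), measured 34.4, 30.5 and 34.5 FPKM, based on 1088, 939 and 1043 reads. Libraries 1 and 3 were level and library 2 was lower, with a spread of 1.13-fold (chi-square test, adjusted p = 0.00817). The mean was 33.1 ± 2.30 FPKM (SD, n = 3).

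The bases just before the transcription start were searched for motifs of these factors, such as the GATA motif. A link between such motifs and the pattern over libraries was not tested. RefSeq windows (build GRCm38.p6) were found for 8 of the 10 factors, Gata1, Gata2, Klf1, Tal1, Gfi1b, Cebpa, Gfi1 and Runx1, with 12 windows of 250 bases in all. A GATA motif (AGATAA or AGATAG or TGATAA or TGATAG, on either strand) was found in 3 windows, 1 each of Klf1, Tal1 and Gfi1b, and none of these motifs overlapped another motif searched. Over all 32851 RefSeq windows of this length, 26.5% held such a motif, close to the 25.0% of the 12 windows. The windows of Gata1 and Gata2, also called with library 2 lowest, held no GATA motif, and neither did the other Tal1 window. The windows of Gfi1, Cebpa and Runx1 held none either, and no window was found for Spi1 and Cebpe. The 3 windows with a GATA motif are printed with the motif in capitals, beside that of Cebpa, which varied the other way. They are chr8:84901732-84901927 (plus strand) for Klf1, chr4:115056176-115056425 (plus) for Tal1, chr2:28621983-28622232 (minus) for Gfi1b and chr7:35119043-35119292 (plus) for Cebpa. All lie outside the annotated exons of the same gene, and exons of other genes were not checked. The Klf1 stretch holds 196 bases, since the rest of its window lies in an exon.
Klf1: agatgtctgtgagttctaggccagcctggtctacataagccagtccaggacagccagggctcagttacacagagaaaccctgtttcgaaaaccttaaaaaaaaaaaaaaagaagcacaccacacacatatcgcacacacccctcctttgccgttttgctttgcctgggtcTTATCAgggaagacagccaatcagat
Tal1: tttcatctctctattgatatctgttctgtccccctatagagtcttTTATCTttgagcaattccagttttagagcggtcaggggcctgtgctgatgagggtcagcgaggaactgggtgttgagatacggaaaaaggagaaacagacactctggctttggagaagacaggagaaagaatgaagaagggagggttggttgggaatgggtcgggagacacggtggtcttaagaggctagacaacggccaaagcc
Gfi1b: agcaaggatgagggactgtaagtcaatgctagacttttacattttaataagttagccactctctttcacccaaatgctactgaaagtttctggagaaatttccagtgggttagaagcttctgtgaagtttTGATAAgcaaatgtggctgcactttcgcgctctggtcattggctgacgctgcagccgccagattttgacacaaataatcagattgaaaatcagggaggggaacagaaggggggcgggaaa
Cebpa: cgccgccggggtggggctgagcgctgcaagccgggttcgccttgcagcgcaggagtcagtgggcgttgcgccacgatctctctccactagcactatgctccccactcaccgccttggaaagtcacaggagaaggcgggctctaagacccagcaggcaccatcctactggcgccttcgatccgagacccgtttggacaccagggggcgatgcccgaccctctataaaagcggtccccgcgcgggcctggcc

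The first bases of the motif lay 80 bases before the RefSeq start of Klf1, 205 before that of Tal1 and 120 before that of Gfi1b. A KLF motif (CCNCNCCC on either strand, which also matches runs of G or C) was in 10 of the 12 windows, or 83.3%, against 45.9% of all windows. The share was also high in the windows of the partners and cofactors (80.0%) and of the other lineage transcription factors (77.8%). The Gata1 window held 3 of them, and the Klf1 window and the Tal1 window printed above held none. Among the red cell target genes listed further on, 14 of 21 windows (66.7%) held a GATA motif, and among mast cell and basophil genes 6 of 10 (60.0%). For megakaryocyte genes it was 4 of 9 (44.4%), the same as for the secondary granule genes of neutrophils. The other motifs were CAGATG for TAL1, in 1 of the 12 windows and 14.4% of all windows, and GAGGAA for PU.1, in 3 and 23.3%. TGTGGT for RUNX was in 1 and 14.0%, TTGCNNAA for C/EBP in 2 and 9.56%, and AAATCA for GFI1 in 1 and 12.4%, each searched on both strands. A match of letters is a description of the sequence and not evidence of binding.

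Gata2 and Gfi1 also had their lowest value in library 2, with smaller read numbers, and only Gata2 of the pair passed the test. Gata2, needed for stem cells and mast cells (ENSMUSG00000015053, chromosome 6, 88193891 to 88207032, plus strand), measured 6.40, 5.41 and 6.10 FPKM, based on 597, 492 and 544 reads. Its mean was 5.97 ± 0.507 FPKM (SD, n = 3). The spread was 1.18-fold (chi-square test, adjusted p = 0.0217), and it missed the threshold with the library totals behind the deposited FPKM (adjusted p = 0.0513), with median-of-ratios totals (0.0515) and with trimmed-mean totals (0.0628). It also missed the threshold without library 1 (adjusted p = 0.139). Gfi1, a transcriptional repressor that neutrophil development requires (ENSMUSG00000029275, chromosome 5, 107716657 to 107726036, minus strand), measured 14.4, 13.1 and 14.1 FPKM, based on 794, 703 and 741 reads. Its mean was 13.9 ± 0.685 FPKM (SD, n = 3). Its spread of 1.10-fold was not detectable above counting error with these reads (adjusted p = 0.140 in the chi-square test).

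Cebpa, Cebpe, Spi1 and Runx1 had their highest value in library 2, and only Cebpa of these passed the test. Cebpa, which starts the granulocyte and monocyte program and is also a factor of fat cells (ENSMUSG00000034957, chromosome 7, 35119293 to 35121928, plus strand), measured 34.8, 40.0 and 33.3 FPKM, based on 1587, 1776 and 1450 reads. Its mean was 36.0 ± 3.52 FPKM (SD, n = 3). The 95% interval of library 2, 38.2 to 41.9 FPKM, lay above those of library 1 (33.1 to 36.6) and library 3 (31.6 to 35.0). The spread was 1.20-fold (chi-square test, adjusted p = 9.71e-06).

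Cebpe, which switches on the secondary granule genes of neutrophils (ENSMUSG00000052435, chromosome 14, 54710360 to 54712174, minus strand), measured 90.8, 95.8 and 88.4 FPKM, based on 1947, 2002 and 1813 reads. Its mean was 91.6 ± 3.77 FPKM (SD, n = 3), and the difference did not pass the test (chi-square test, adjusted p = 0.126). Spi1, the gene of PU.1 (ENSMUSG00000002111, chromosome 2, 91082390 to 91115756, plus strand), measured 74.5, 78.3 and 75.3 FPKM, based on 3469, 3556 and 3357 reads. Its mean was 76.1 ± 2.01 FPKM (SD, n = 3), a CV of 2.65%, the smallest of the 10 factors, and the highest value was 1.05 times the lowest (chi-square test, adjusted p = 0.427). Runx1, the stem cell and megakaryocyte factor (ENSMUSG00000022952, chromosome 16, 92601466 to 92826149, minus strand), measured 7.78, 8.39 and 7.87 FPKM, based on 1617, 1699 and 1564 reads. Its mean was 8.01 ± 0.328 FPKM (SD, n = 3), and its spread of 1.08-fold did not pass the test (chi-square test, adjusted p = 0.276). Library 2 was the highest for all 4 of these genes, by margins that for Cebpe, Spi1 and Runx1 were within counting error.

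In all, 6 of the 10 factors differed between libraries, against 38.7% of all tested genes and 44.6% of those with reads in their range. The count was 5 with the totals behind the deposited FPKM, median-of-ratios totals and trimmed-mean totals, where Gata2 missed the threshold. Of the 6, 5 were called with library 2 lowest (Gata1, Gata2, Klf1, Tal1 and Gfi1b) and 1 with library 2 highest (Cebpa). Of all tested genes, 16.5% and 13.0% were called in these directions. Without regard to the test, 6 factors were lowest and 4 highest in library 2, so that none had library 2 in the middle, while 36.8% of all tested genes were lowest and 34.8% highest there. These counts of direction, 6 and 4, and the genes behind them were the same under median-of-ratios, trimmed-mean and reads-listed scaling. Between libraries 1 and 3 alone, 0 of the 10 factors passed the chi-square test, where 18.2% of all tested genes were called. The lowest adjusted p there was 0.114, of Tal1, and 2 factors, Tal1 and Gata1, were below 0.05 before adjustment (0.0279 and 0.0317). Against library 3 alone library 2 differed in 5 factors (25.0% of all genes called), and against library 1 alone in 6 (29.7%).

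**Figure D2:**
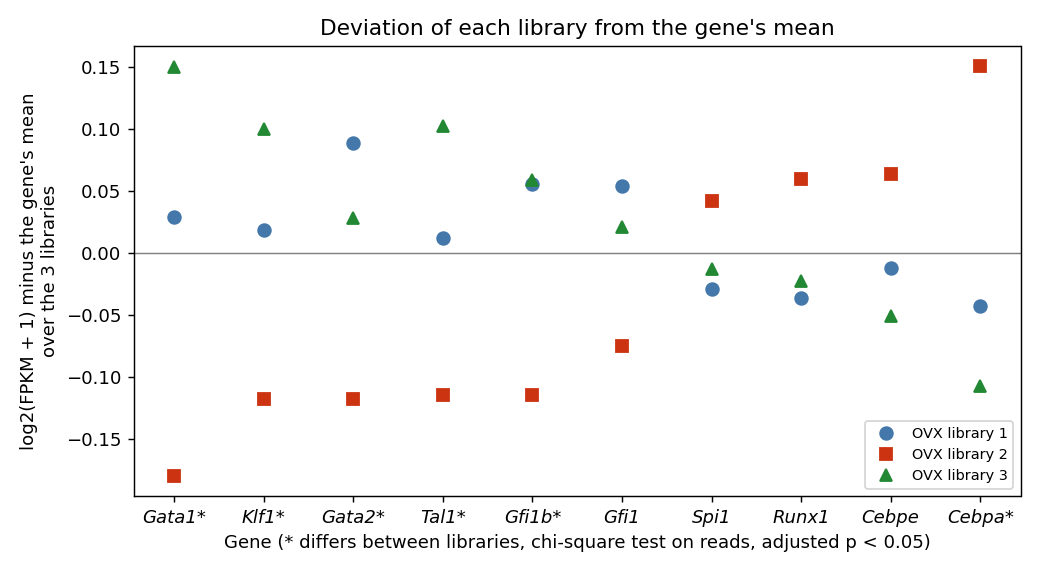
Each library's log2(FPKM + 1) minus the gene's mean over the 3 libraries, with genes ordered by the difference of library 2 from the others. Asterisks mark genes called different between libraries by the chi-square test (adjusted p below 0.05). Library 2 lies below the other libraries for 6 genes, from Gata1 to Gfi1, and above them for Spi1, Runx1, Cebpe and Cebpa.

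The size of the shift was small for each factor. On the log2(FPKM + 1) scale, library 2 minus the mean of libraries 1 and 3 was -0.27 for Gata1, -0.18 for Klf1 and Gata2, -0.17 for Tal1 and Gfi1b and -0.11 for Gfi1. It was 0.06 for Spi1, 0.09 for Runx1, 0.10 for Cebpe and 0.23 for Cebpa. The median over all tested genes was -0.004. In FPKM, library 2 had 0.825 times the mean of the other libraries for Gata1 and 1.17 times for Cebpa.

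Ratios between factors within one library carry no effect of library size. Gata1 was 7.70 ± 0.571 times as high as Gata2, the factor it replaces during red cell maturation (SD, n = 3). Gfi1b was 2.39 ± 0.0626 times as high as its relative Gfi1 (SD, n = 3), with 2.39, 2.33 and 2.45 in libraries 1, 2 and 3. This was the steadiest of the 6 ratios taken, but its spread lies within counting error. That error was 3.13% of the mean for Gfi1b and 3.66% for Gfi1. Cebpe was 2.55 ± 0.139 and Spi1 2.12 ± 0.154 times as high as Cebpa, and Klf1 was 2.85 ± 0.119 times as high as Gata1 (SD, n = 3). The ratio of Gata1 to Spi1, a pair of mutual antagonists, was 0.627, 0.514 and 0.676 in libraries 1, 2 and 3, so Spi1 was the higher gene in each library.

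These ratios and the order of levels depend on gene length. The listed lengths equalled the summed exons of the gene in GENCODE M21 for all 10 factors, so rarely used exons lower the FPKM. Runx1 is listed at 12025 bases, while its longest coding transcript has 5861, and on that length its mean was 16.4 ± 0.672 FPKM (SD, n = 3). Gata2 came to 9.02 ± 0.766 and Spi1 to 100.8 ± 2.67 on the same basis, while Klf1 and Cebpe, each with 1 annotated transcript, did not move. Runx1 then stood above Gfi1 (15.4 ± 0.763) and Spi1 above Cebpe, and the other 6 factors kept their places. Whether counting used the strand is not stated in the sources read. Opposite-strand genes overlap Cebpa, Gfi1 and Runx1, but Gm45091, A430072P03Rik and Gm26626 held at most 10, 33 and 12 reads in a library.

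Families were also taken by gene symbol, which is narrower than the family given in the table. Within these symbol families 5 of the 10 factors had the highest mean: Gata1, Cebpe, Runx1, Gfi1b and Klf1. For Gfi1b the only other gene was Gfi1. Gata1 and Gata2 were the only genes with a Gata symbol above 1 FPKM. In the table's own GATA family Mta2, at 63.8 FPKM, stood above Gata1. Gata3, the T cell factor, had a mean of 0.342 FPKM, and the heart and gut factors Gata4 and Gata5 had 0 reads in all 3 libraries, which allows up to 0.0445 and 0.0530 FPKM in library 1 (3 reads). Among C/EBP genes the order was Cebpe, Cebpb (48.2 ± 4.38 FPKM), Cebpa, Cebpd (23.3 ± 0.156) and Cebpg (17.1 ± 0.570, SD, n = 3). Cebpb, the factor of emergency granulocyte formation, differed between libraries with its lowest value in library 1 (43.3, 49.6 and 51.8 FPKM, chi-square test, adjusted p = 0.00158), unlike Cebpa. Spib, the PU.1 relative of B cells and plasmacytoid dendritic cells, was higher than Spi1 at 114.9 ± 4.05 FPKM, and Spic, of red pulp and marrow iron-recycling macrophages, stood at 9.25 ± 1.27 (SD, n = 3). Lyl1, the close relative of Tal1, was also higher than it, at 80.5 ± 4.25 FPKM, whereas Tal2 had 0.161 (SD of Tal2 0.0832, n = 3). Runx1, Runx3 and Runx2 were close, at 8.01, 6.30 and 5.55 FPKM on listed lengths, and Runx2, the bone factor, had 5.14, 6.87 and 4.63 FPKM in the 3 libraries. Of 17 Klf genes listed, 14 were above 1 FPKM. Klf1 led them, followed by Klf2 at 64.3 ± 5.94 FPKM (SD, n = 3).

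**Figure D3:**
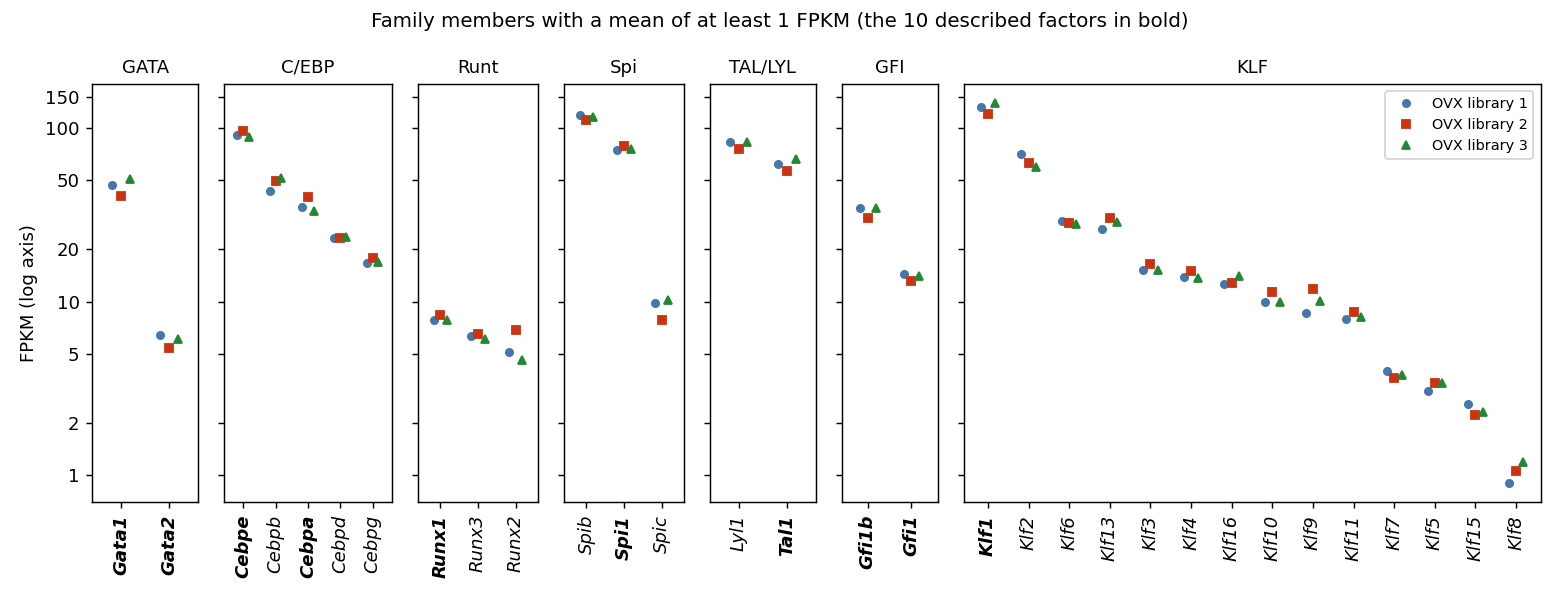
FPKM (log axis) of family members, taken by gene symbol, with a mean of at least 1 FPKM, by library, with the 10 described factors in bold. Gata1, Cebpe, Runx1, Gfi1b and Klf1 are the highest of their panels, while Spib lies above Spi1 and Lyl1 above Tal1.

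Among partners and cofactors of these factors, the called genes were more often lowest than highest in library 2, the side of the red cell factors. Of 16 listed, all were tested and 9 differed between libraries, 7 of them lowest in library 2 (16.5% of all tested genes) and 0 highest there (13.0%). The median shift of library 2 was -0.08 on the log2(FPKM + 1) scale, beside -0.004 over all genes. It was -0.040 without library 1 and -0.12 without library 3. Lmo2, the bridging protein of the Tal1 and Gata1 complex, had the highest mean and stood at 124, 111 and 125 FPKM in libraries 1, 2 and 3 (chi-square test, adjusted p = 1.98e-09). Cbfa2t3, the corepressor Eto2 of that complex, had 9.38, 7.81 and 9.42 FPKM (adjusted p = 1.75e-06). Myb, a factor of immature progenitors, differed by another order, with 32.7, 29.0 and 28.2 FPKM (chi-square test, adjusted p = 1.54e-16). Kdm1a, the demethylase recruited by Gfi1 and Gfi1b, had the smallest range, with 12.1, 11.8 and 11.9 FPKM (adjusted p = 0.591). Zfpm1, the Gata1 cofactor FOG1, had 84.6, 78.4 and 86.1 FPKM, and Cbfb, the Runx1 partner, 39.2, 43.1 and 41.3. Zfpm1 and Cbfb were named after their values had been seen, and Cbfb did not pass the test (chi-square test, adjusted p = 0.0916).

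The red cell target genes did not share the order of their factors. Of 24 listed, 23 were in the table and 22 were tested. Of those tested, 19 differed between libraries (38.7% of all tested genes). Of the 19, 12 were lowest in library 1 and 6 in library 2 (16.5%). The share of all tested genes called and lowest in library 1 was not taken, so the count of 12 has no background beside it. For this list library 2 had a median shift of -0.02, which was -0.11 against library 3 alone and 0.047 against library 1 alone. The beta-globin gene Hbb-bs had 20397, 22806 and 26898 FPKM in libraries 1, 2 and 3, Hbb-bt 5314, 7241 and 7877, and the alpha-globin gene Hba-a2 801, 956 and 1167. The globin copies are near-identical, so reads may be divided between them by the counting. Add2, a membrane skeleton gene, had the smallest range, 19.2, 18.9 and 19.1 FPKM (chi-square test, adjusted p = 0.404).

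The 6 called targets with library 2 lowest, like their factors, included Epor, Ank1, Ermap, Kel and Rhd, named after their values had been seen. Epor, the erythropoietin receptor, had 54.4, 48.4 and 52.8 FPKM (chi-square test, adjusted p = 9.90e-04), and the blood group protein gene Kel had 94.6, 79.5 and 88.3 (adjusted p = 1.83e-16). Those lowest in library 1 held all 4 adult globin genes, the heme synthesis genes Alas2 and Fech, and the membrane gene Slc4a1. Alas2, which starts heme synthesis and was named after its values had been seen, had 440, 526 and 566 FPKM (chi-square test, adjusted p = 2.12e-120). Gata1 and Klf1 were thus lowest in library 2 where globin and heme genes were intermediate.

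Megakaryocyte genes, a lineage in which Gata1, Tal1, Gfi1b and Runx1 act, were lowest in library 2 for every tested gene, as Gata1, Tal1 and Gfi1b were, while Runx1 had its highest value there and did not pass the test. All 11 tested of 12 listed differed (38.7% of all tested genes). All 11 were lowest in library 2 (16.5% of all were called and lowest there), with a median shift of -0.57. Ppbp, a platelet chemokine gene, had 875, 558 and 910 FPKM in libraries 1, 2 and 3. Treml1, a platelet granule receptor, had 57.1, 32.7 and 60.8 FPKM (chi-square test, adjusted p = 2.37e-48), and Gp1ba, of the von Willebrand factor receptor, 22.4, 14.4 and 26.2 (adjusted p = 7.19e-34). The summed level of the list was 1724, 1139 and 1795 FPKM in the 3 libraries, and 9 of 11 genes were highest in library 3. The part of megakaryocyte RNA in the lower Gata1, Tal1 and Gfi1b of library 2 was not tested.

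Neutrophil granule genes were taken as 2 lists, whose difference was not tested. Of 6 primary granule genes, which are made at the promyelocyte stage, all 6 differed (38.7% of all tested genes). Of these, 4 were lowest in library 2 (16.5%) and 1 was highest there (13.0%). Elane, neutrophil elastase, had 523, 472 and 510 FPKM (chi-square test, adjusted p = 5.20e-14) and Mpo, myeloperoxidase, 252, 212 and 238 (adjusted p = 1.04e-55). Cd63, a granule membrane protein found in many cell types, went the other way, with 54.9, 73.6 and 57.4 FPKM (chi-square test, adjusted p = 1.95e-39). Of 9 secondary granule genes, the targets of Cebpe, 7 differed. Of these, 4 were highest and 0 lowest in library 2, and the other 3 were highest in library 1. With many reads even small spreads were called. Ltf, named after its values had been seen, had 668, 665 and 650 FPKM (chi-square test, adjusted p = 1.54e-08). Ngp had 3331, 3472 and 3328 FPKM (chi-square test, adjusted p = 1.08e-10) and Chil3 681, 768 and 709 (adjusted p = 2.11e-22). Padi4 had 29.0, 27.0 and 25.2 FPKM (chi-square test, adjusted p = 8.47e-06), and the collagenase gene Mmp8 160, 163 and 162 (adjusted p = 0.938). The median shifts of library 2 were -0.10 for the primary and 0.06 for the secondary list.

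Myeloid receptor and surface genes, targets of Spi1 and Cebpa, had no common direction. Of 10 tested, 6 differed (38.7% of all tested genes). Of these, 2 were highest (13.0%) and 2 lowest (16.5%) in library 2. The median shift was -0.06, and -0.029 without library 3. Csf1r, the M-CSF receptor and a PU.1 target, had 33.6, 47.2 and 38.3 FPKM (chi-square test, adjusted p = 1.65e-37), and Fcgr1 5.77, 6.88 and 4.77 (adjusted p = 0.00148). Csf2ra, of the GM-CSF receptor, was highest in library 1, with 103, 90.8 and 88.0 FPKM (adjusted p = 6.26e-12), and Fcgr3 had 84.2, 79.6 and 82.5 (adjusted p = 0.0595). Mast cell and basophil genes, a lineage in which Gata2 acts, were highest in library 2 for 5 of 8 tested genes (34.8% of all tested genes), while Gata2 was lowest there. Of these genes 6 differed (38.7% of all), 3 of them highest and 1 lowest in library 2, with a median shift of 0.27 for the list. Prss34 had 63.2, 83.7 and 67.7 FPKM and Mcpt8 30.7, 52.0 and 41.2, whereas Fcer1a had 10.8, 6.07 and 8.67 (chi-square test, adjusted p = 3.13e-05).

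**Figure D4:**
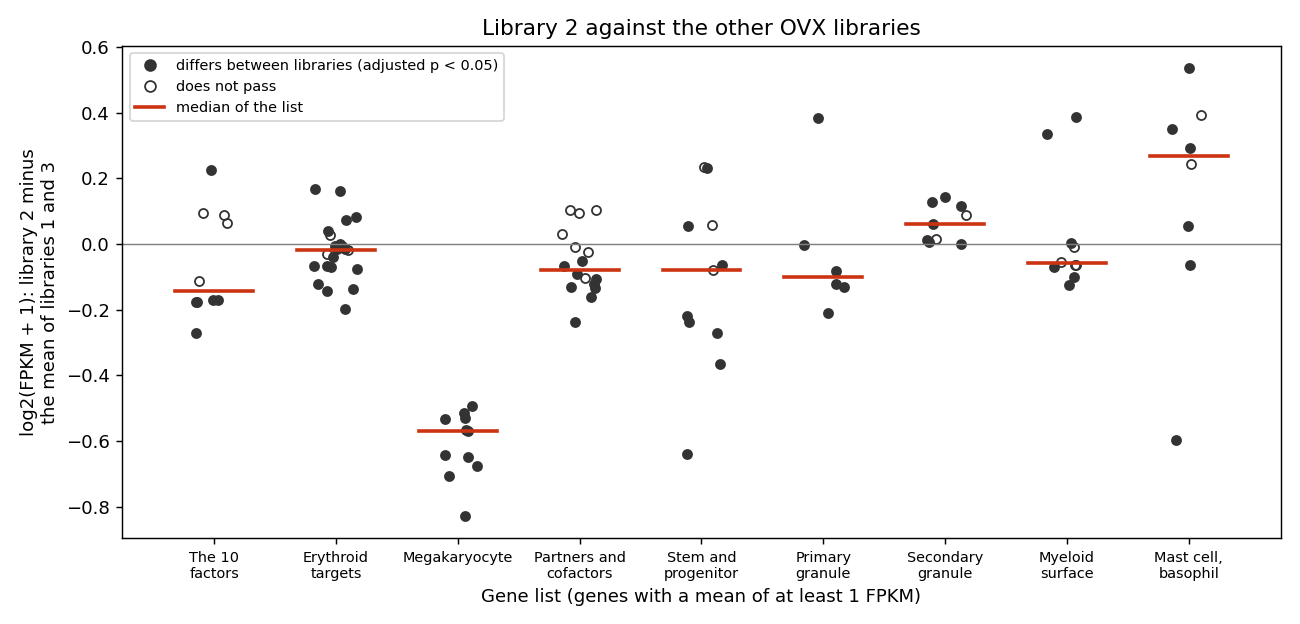
Library 2 minus the mean of libraries 1 and 3, in log2(FPKM + 1), for the 10 factors and for the tested genes of 8 lists; each point is a gene, filled where the chi-square test called it (adjusted p below 0.05), and red lines are list medians. The megakaryocyte list has its median at -0.57 with every gene below 0, while the erythroid targets lie around -0.02.

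Among stem and progenitor genes more were called lowest than highest in library 2. Of 13 listed, 11 were tested and 8 differed (38.7% of all tested genes). Of these, 5 were lowest (16.5%) and 1 was highest (13.0%) in library 2. The median shift was -0.08, and -0.24 over the listed genes that averaged 5 FPKM or more. It was -0.071 without library 1 and -0.22 without library 3. Cd48 had the highest mean, with 43.8, 37.4 and 44.8 FPKM (chi-square test, adjusted p = 7.83e-04). Angpt1, a ligand also made by megakaryocytes, had 8.55, 5.33 and 9.17 FPKM (adjusted p = 2.48e-21), and Hlf, a stem cell factor, 1.71, 1.03 and 1.53 (adjusted p = 1.57e-04). Meis1 had 1.27, 1.13 and 1.24 FPKM (adjusted p = 0.478).

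Markers of other cells that use some of these factors also varied between libraries. Fat cell genes were highest in library 2 and lowest in library 3 for all 5 tested markers, the order that Cebpa had, and their summed level was 160, 324 and 103 FPKM over 6 listed genes. Of them Fabp4 had the smallest range, with 41.7, 51.2 and 40.9 FPKM, and Cfd was among the widest, with 55.1, 184 and 9.25. This order was not particular to fat cells. All 10 osteoblast markers were highest in library 2, where 34.8% of all tested genes were highest, and 7 were lowest in library 3. Of the 9 secondary granule genes, Camp, Ngp and Lcn2 had the order of the fat cell genes. Mmp8, Chil3 and Ifitm6 were highest in library 2 but lowest in library 1, and Ltf, Cybb and Padi4 were highest in library 1. Osteoclast genes, a PU.1 lineage, were highest in library 2 and lowest in library 1 for all 7 tested markers, with a summed level of 398, 1107 and 833 FPKM, while Spi1 did not pass the test. Endothelial genes, whose cells can also hold Gata2, Tal1 and Runx1, summed to 70.4, 72.0 and 69.9 FPKM, and macrophage markers to 510, 530 and 533. Within these sums 5 of 8 endothelial and 4 of 8 macrophage markers differed (38.7% of all tested genes). Among them was Cd163, a scavenger receptor, with 6.86, 12.3 and 17.3 FPKM (chi-square test, adjusted p = 6.88e-86). The part of fat cells in the Cebpa level was not tested. Summed skeletal muscle markers were 1055, 79.6 and 691 FPKM, in the order library 1, library 3, library 2, which none of Gata1, Klf1 and Tal1 shared but Gata2 and Gfi1 did.

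The 3 coding genes most like each factor were sought by the distance between their log2(FPKM + 1) profiles, each centred on its mean, among genes within 2-fold of its level. For Gata1 these were Hhex, a homeobox factor of blood and endothelial progenitors, Hist1h2bc and Nomo1, at distances from 0.015 to 0.028. Klf1 had Ywhah, Fam117a and Car1, the last an abundant carbonic anhydrase of red cells, and Tal1 had Nxpe2, Fam117a and Ptbp3. Gfi1b had Tcf19, Cenpa and Mdh2, and Gata2 had Kctd1, Lcor and 4921524J17Rik. Cebpa had Rflnb, Anxa5 and G0s2, Cebpe had Cited2, Gmfg and Msrb1, and Spi1 had Raly, Edf1 and Ctdsp1. Gfi1 had Dlst, Tial1 and Prdm2, and Runx1 had Ccdc77, Ambra1 and Tti1. With 3 libraries such likeness is common: 12 of 1851 candidates lay within 0.05 of Gata1, but 497 of 5238 lay that close to Runx1. Among the 10 factors themselves Klf1 and Tal1 were the closest pair, at 0.0075, and Gata1 and Cebpa the farthest apart, at 0.43.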

How the data were processed

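The authors deposited a table of FPKM of femoral RNA with a length for each gene. The submitters' processing notes list FastQC, featureCounts, STAR and Trimmomatic, and build mm10. Their versions, the strand setting and the annotation were not given in the sources used here. Of 6 per-sample columns, 3 matched OVX library names and 3 matched no label. Those 3 were not used, so the planned limma comparison of Zin with OVX was not run. The factors and gene lists were chosen with earlier results of these data known.

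Reads were recovered from FPKM times length, and 100% of values came out whole to within 0.01 read. The totals behind the FPKM were 1.02, 0.993 and 0.997 times the reads listed in libraries 1, 2 and 3. Genes averaging 1 FPKM or more entered a chi-square test of reads against the reads listed per library, Benjamini-Hochberg adjusted over 14011 genes, threshold 0.05. The test was checked on simulated data. Logs are log2(FPKM + 1), which understates changes of low genes. Intervals are exact Poisson at 95% and leave out all but counting error, as PCR copies cannot be told from separate molecules. Genes named from a list were its highest mean, its 2 widest ranges and its smallest range, others being marked as chosen later; of the 10 marker lists only those bearing on the factors are described. Values of a few listed genes are not reported here. Motifs were searched in RefSeq windows. Alternatives were other scalings, pseudocounts of 0.1 and 5, other filters, transcript length and each library left out. The software was scipy 1.17.1, pandas 2.3.3, matplotlib 3.10.9 and numpy 2.4.6 under Python 3.11.15.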

Additional observations from a re-analysis of the deposited data

How the results depend on the processing

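The transcript-length alternative, the library 2 shifts of the 10 factors under all other settings and those of the lists under other scalings were chosen after seeing the data. With the length of the longest coding transcript, mean FPKM became 58.9 for Gata1, 9.02 for Gata2, 100.8 for Spi1, 15.4 for Gfi1 and 16.4 for Runx1. The ratios became 6.53 for Gata1 to Gata2, 2.15 for Gfi1b to Gfi1, 2.80 for Spi1 to Cebpa and 2.22 for Klf1 to Gata1, since the lengths differ. With 1 library left out, the count of factors that differed ran from 0 (without library 2) to 6, and that of all genes from 2552 (without library 2) over 3499 (without library 1) to 4161, with fewer samples in the test. The shift of library 2 for the erythroid targets then ran from -0.11 to 0.047 and that for stem and progenitor genes from -0.22 to -0.071. At a mean of at least 5 FPKM, with fewer genes in the list, the stem and progenitor shift was -0.24 and that of the other lineage transcription factors 0.0044. Under median-of-ratios, trimmed-mean and reads-listed scaling, the shift of each of the 10 factors kept its sign. Pseudocounts of 0.1 and 5, both other filters and leaving out library 1 or 3 could not change the sign. Library 2 was the lowest or the highest for every factor, and a filter does not alter the shift of a single gene. No paired analysis was possible because columns of only 1 group could be matched. The Zin alternatives were not run. Counting error limits Gata2 and Gfi1 most, with 492 to 794 reads.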

Other observations

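Other lineage transcription factors gave a mixed picture. Of 34 listed, 33 had a mean of at least 1 FPKM. Of those, 23 differed between the OVX libraries by the chi-square test (adjusted p below 0.05, 38.7% of all tested genes). In 9 library 2 was highest (13.0%) and in 5 it was lowest (16.5%). Spib had the highest mean, with 119, 111 and 115 FPKM in libraries 1, 2 and 3. Irf8, the factor of monocytes and dendritic cells, had the smallest range, with 32.6, 32.6 and 32.4 FPKM (chi-square test, adjusted p = 0.607). Zbtb16, or PLZF, had the widest range, with 1.51, 4.02 and 2.61 FPKM (chi-square test, adjusted p = 3.03e-21), followed by Runx2.

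B cell factors and the other genes of this paragraph were named after their values had been seen. Pax5 had 27.0, 23.7 and 23.6 FPKM (chi-square test, adjusted p = 1.63e-12), and Ebf1 9.11, 8.82 and 8.95 (adjusted p = 0.430). Fli1, an ETS factor of megakaryocytes, was lowest in library 2, with 26.1, 22.8 and 25.7 FPKM (adjusted p = 3.02e-04). Nfe2, of the same lineage, had 79.3, 77.5 and 83.6 FPKM (adjusted p = 0.00654).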
